A study of Mus musculus with 19 samples.

Results

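Alveolar type 2 (AT2) cells sorted from Etv5KO mice were compared with whole lung from Etv5KO mice, which shows the transcripts that set these cells apart from the tissue around them when Etv5 has been targeted. The libraries were chosen by their titles alone and comprised 5 Etv5KO AT2 and 5 Etv5KO lung samples, 10 of the 19 samples in the series. Of 36528 gene identifiers counted, 16740 passed the filter on low counts in these 10 libraries and were tested. Etv5KO mice carried SpcCreERT2, RosatdTomato and 1 ko with 1 loxp allele of Etv5 (Etv5ko/loxp), and the 4 control AT2 and 5 control lung samples carried SpcCreERT2 and RosatdTomato. All mice received tamoxifen at 100 mg/kg for 5 days and were followed for another 5 days. Cre in this line is driven from the surfactant protein C gene, so recombination is directed to AT2 cells. The labels do not say whether the ko allele is carried by every cell of the lung. AT2 cells were sorted as EpCAM+ tdTomato+ CD45- CD31- cells, so an AT2 library contains cells in which Cre had acted on the reporter and a lung library contains every cell type of the organ. The labels give no age or sex and do not tie an AT2 sample to a lung sample.

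AT2 cells are cuboidal cells of the alveolus that make, store and secrete surfactant, a film of phospholipid, cholesterol and the surfactant proteins that lowers surface tension. They also act as progenitors of the flat alveolar type 1 (AT1) cells across which gas is exchanged. Etv5 is an ETS-family transcription factor that acts downstream of fibroblast growth factor and Ras-ERK signalling in the lung epithelium. A transcript that is higher in sorted AT2 cells than in whole lung has a larger share of the RNA of these cells than of the organ on average, and other cells of the lung may still make it.

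The Etv5KO AT2 libraries held 17426415 to 26722625 counts and the Etv5KO lung libraries 20332410 to 22478603. Levels below are CPM (counts scaled to a common library size), adjusted by trimmed-mean (TMM) factors, log2 values are differences between AT2 and lung unless stated, and p-values are adjusted over all genes tested. The design gives 5 mice per genotype and does not say which mouse gave which sample, so p-values measure the spread between these samples, and AT2 and lung samples may share mice. In bulk RNA, fewer cells of a type and less RNA per cell cannot be told apart. The first principal component, 91% of the variance, separated AT2 from lung libraries. Control AT2 library 2 stood apart on the third component. No test in the Etv5KO samples alone uses it, but the TMM factors of all CPM printed were computed with it included.

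Etv5 itself was at 731, 761, 750, 711 and 615 CPM in the 5 Etv5KO AT2 libraries and at 119, 112, 94.4, 120 and 119 CPM in the 5 Etv5KO lung libraries. Every AT2 library was above every lung library, a difference of 2.68 ± 0.09 (log2 ± SE; adjusted p = 1.7e-11). The AT2 control libraries held 636 to 718 CPM and the lung control libraries 92.9 to 112 CPM, and the difference in controls was 2.69. Counts over the whole gene were therefore not lower in the libraries labelled Etv5KO. Such a count also takes reads from exons outside a deleted segment, so it does not check the genotype, and Etv5KO stands for that label throughout. The genes of the sort gate separated the libraries as the gate required. Epcam was 232 to 272 CPM in AT2 and 60.6 to 78.8 CPM in lung, Ptprc (CD45) 6.05 to 10.1 CPM against 145 to 284 CPM, and Pecam1 (CD31) 17.4 to 32.0 CPM against 742 to 1012 CPM.

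Most of the transcriptome differed between the cells and the organ. Of the 16740 genes tested, 13063 (78%) passed an adjusted p of 0.05, with 6417 (38.3%) higher in AT2 and 6646 (39.7%) lower. With library size alone as the scaling, the log2 median of all genes moved by -0.37 and the split became 3579 higher against 9341 lower, so the sign of a difference smaller than this shift depends on the scaling. Without any overlap between the 5 AT2 and 5 lung libraries, 29.7% of genes were higher in AT2 and 35.9% lower. At least 2-fold, 2198 genes (13.1%) were higher in AT2 and 4450 (26.6%) lower. The genes called AT2-enriched below were at least 2-fold higher and had a mean of at least 5 CPM in AT2, which 1719 genes (10.3%) met.

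The AT2 programme stood out as a tight group. All 20 AT2 markers were higher in Etv5KO AT2 than in Etv5KO lung, where 38.3% of all genes were. Their median log2 was 2.73, where the median of all genes tested was 0.01. Their differences ran from 1.94 for Ctsh, a lysosomal protease that processes surfactant protein B, to 3.21 for S100g, a calcium-binding protein. Together the 20 markers took 16.5% to 19.8% of the counts in the AT2 libraries and 2.93% to 4.01% in the lung libraries. In control samples all 20 were higher too, where 35.6% of all genes were, with a median of 2.87, and none of the 20 passed the test of the difference between the genotypes. Only 1 of the 20 had a larger difference in Etv5KO than in controls. The median change was -0.12, where that of all genes was -0.01. Sftpa1 and Chil1 are also of a list drawn up on these samples for lower levels in Etv5KO.

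Sftpc, which encodes the AT2-restricted surfactant protein C, was at 79893, 57490, 64580, 80005 and 68392 CPM in the AT2 libraries and at 7649, 7968, 7769, 10385 and 8110 CPM in the lung libraries. The lowest AT2 library was far above the highest lung library, and the log2 difference was 3.08 ± 0.17 (adjusted p = 2.0e-09). Sftpb, needed for the surfactant film to form, was at 24726, 25816, 26987, 29444 and 23520 CPM against 4252, 3762, 3414, 4811 and 3696 CPM (2.73 ± 0.14, adjusted p = 8.4e-10). The collectins Sftpa1 and Sftpd, which bind microbes in the airspace, were higher by 2.73 and 2.79. The phosphate transporter Slc34a2 was higher by 2.66, the antibacterial lysozyme Lyz2 by 2.66 and the chitinase-like Chil1 by 3.02, and the groups did not overlap for any of these genes.

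On the authors' deposited RPKM scale, which divides by transcript length and so allows genes to be compared, Sftpc was the most abundant transcript of Etv5KO AT2 cells at 83028 ± 11718 RPKM (SD, n = 5), against 10104 ± 1402 in lung. It was followed by Lyz2 at 23403 ± 4704 RPKM, Sftpb at 15890 ± 1444 and Sftpa1 at 6006 ± 766. The next places were held by Cbr2, a carbonyl reductase, at 5441 ± 807 RPKM, by Cd74, the class II invariant chain, at 4521 ± 276, and by Sftpd, Slc34a2, the chemokine Cxcl15 and the stearoyl-CoA desaturase Scd1. Of the 15 most abundant, the mitochondrial CYTB (log2 0.18, adjusted p = 0.34) did not pass the test between AT2 and lung. Mir5107, also among the 15, lies within Cd74, so its counts cannot be separated from those of its host.

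**Figure D1:**
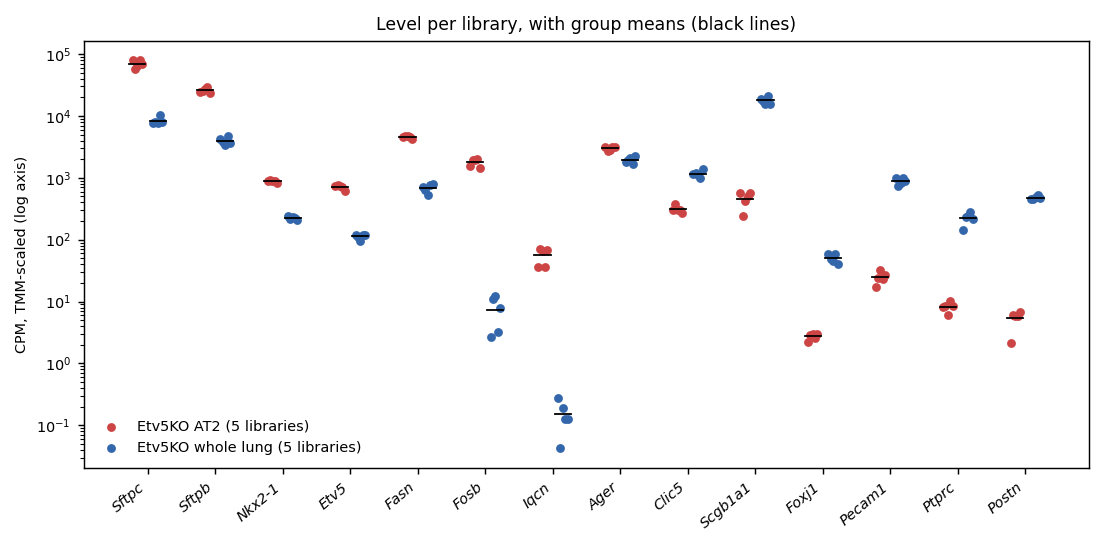
Each point is 1 Etv5KO library and black lines are group means; the vertical axis is TMM-scaled CPM on a log axis. Sftpc, Sftpb, Nkx2-1, Etv5, Fasn, Fosb, Iqcn and Ager lie higher in the 5 AT2 libraries, and Clic5, Scgb1a1, Foxj1, Pecam1, Ptprc and Postn lie higher in the 5 lung libraries, with no overlap for any of the 14 genes.

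Lipid synthesis, which supplies the phospholipid and cholesterol of surfactant, was concentrated in the AT2 libraries. Of 20 genes for making fatty acids and surfactant phospholipid, 16 were higher and 3 lower, where 38.3% and 39.7% of all genes were. Their median log2 was 1.59. Fasn, the fatty acid synthase, was at 4521, 4703, 4715, 4629 and 4218 CPM in AT2 and at 700, 647, 523, 769 and 804 CPM in lung (2.74 ± 0.12, adjusted p = 2.0e-10). Scd1, which introduces the double bond into stearate, was higher by 2.92, the glycerol-3-phosphate acyltransferase Gpam by 2.17 and Scd2 by 1.18. The exceptions were the elongase Elovl6 (-4.89), Pcyt1b (-4.38), an isoform of the rate-limiting enzyme of phosphatidylcholine synthesis, and the acetyl-CoA synthetase Acss2 (-0.59). The first 2 were under 0.5 CPM in every AT2 library.

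Cholesterol synthesis was the most uniform of the lipid groups. All 20 of its genes were higher in Etv5KO AT2, where 38.3% of all genes were. Their median was 2.05, with a range from 0.66 for Sc5d to 2.56 for Fdps. In control samples all 20 were higher too, where 35.6% of all genes were, with a median of 2.12. None of the 20 passed the test of the difference between genotypes.

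Lysosomal genes had no such direction. Of 20, 8 were higher in AT2 and 10 lower, shares near the 38.3% and 39.7% of all genes, with a median of -0.11. The 2 Niemann-Pick cholesterol carriers were among those higher, Npc2 by 2.80 and Npc1 by 2.07. Psap, the precursor of the saposins, was at 138 to 171 CPM in AT2 and 1106 to 1308 CPM in lung (-2.90), and Ctss and Lipa, both abundant in macrophages, were lower by more (-4.52 and -5.01). With library size alone as the scaling, 4 lysosomal genes were higher and 12 lower. Of 8 genes of the MHC class II pathway, which AT2 cells as well as immune cells express, 6 were higher in AT2, led by Cd74 (1.69), H2-DMb1 (1.6) and H2-Aa (1.36), and H2-Oa was lower (-4.26). Library size alone left 4 of the 6.

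Transcription factors of the lung epithelium were enriched as a group in the AT2 libraries. Of 19 tested, 16 were higher, where 38.3% of all genes were, with a median of 1.84. Nkx2-1, the factor that specifies lung epithelium, was at 879, 913, 893, 873 and 835 CPM in AT2 and 245, 214, 236, 225 and 211 CPM in lung (1.97 ± 0.07, adjusted p = 2.1e-11). Cebpa was higher by 2.00 and Tfcp2l1 by 2.26, and the groups did not overlap for either gene. Foxp1 did not pass (0.15, adjusted p = 0.22). Cebpb was lower by 0.68 on the log2 scale, and Sox2, a factor of conducting airways, was at 0.264 to 0.634 CPM in AT2 against 7.11 to 11.0 CPM in lung (-4.31).

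Genes that sense, feed back on or respond to ERK signalling were mixed. Of 19, 12 were higher in AT2 and 6 lower, where 38.3% and 39.7% of all genes were, with a median of 1.13. The receptor Fgfr2 was at 1359 to 1673 CPM in AT2 and 237 to 283 CPM in lung (2.52 ± 0.09, adjusted p = 2.5e-11), and the target Phlda1 was higher by 2.30. The cell cycle cyclin Ccnd1 was higher by 1.5. Spry1, which restrains the pathway, was higher by 1.30, whereas its relative Spry4 was lower (-1.5), as was Etv1 (-2.22). Etv4, a close relative of Etv5, was low throughout, at 4.53, 4.80, 3.34, 4.03 and 6.09 CPM in AT2 and at 1.28, 0.978, 1.04, 0.667 and 1.06 CPM in lung. The 2 groups did not overlap (2.19 ± 0.20, adjusted p = 3.1e-07).

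For 3 of these genes AT2 and lung differed to another extent in Etv5KO than in control samples. Etv4 and Ccnd1 are of a list of 16 genes drawn up on these samples for higher levels in Etv5KO. Spry1 is of a list of 18 drawn up for lower levels, so these calls are a description and not independent evidence. The difference for Etv4 was -0.03 in controls, 2.20 less than in Etv5KO (adjusted p = 0.045), for Ccnd1 it was 0.75, less by 0.74 (adjusted p = 0.018), and for Spry1 it was 1.80, more by 0.51 (adjusted p = 0.045). The calls for Etv4 and Spry1 stood close to the threshold: with limma-voom the adjusted p was 0.096 for Etv4 and 0.051 for Spry1, and each call was lost on leaving out any of most libraries in turn.

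Epithelial junction and keratin genes were largely higher in AT2, 17 of 22 with 4 lower and a median of 1.65. Of all genes, 38.3% were higher and 39.7% lower. Claudin Cldn3 (2.33) and keratin Krt18 (2.03) stood near the top of this list. Claudin Cldn4 (-2.17) and keratin Krt19 (-0.90) were lower. Of 14 genes of alveolar ion transport, 10 were higher and 2 lower. The sodium channel subunits Scnn1b (-0.80) and Scnn1g (-2.30), through which alveolar fluid is cleared, were the 2 that were lower. Scnn1a did not pass, and Ano1, a chloride channel, was at 112 to 179 CPM in AT2 and 121 to 187 CPM in lung (-0.19, adjusted p = 0.24). Ano1 passed as lower with library size alone (-0.55, adjusted p = 0.004).

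Of the 17 unfolded protein response genes, which serve protein folding in secretory cells, 9 were higher in AT2 and 8 did not pass. Of all genes, 38.3% were higher and 78% passed in either direction. The median of the list was 0.35. With library size alone 6 were higher and 4 lower. Of 14 innate defence genes tested, 7 were higher and 5 lower, where 38.3% and 39.7% of all genes were. The siderophore-binding Lcn2 was at 321, 174, 258, 247 and 245 CPM against 33.8, 45.4, 34.1, 45.7 and 45.1 CPM (2.63 ± 0.15, adjusted p = 3.0e-09), and the lipopolysaccharide-binding Lbp was higher by 1.15. Complement C3 was lower (-1.07), with lung library 5 at 2175 CPM and the other lung libraries at 584 to 1060 CPM.

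The largest differences were not those of the AT2 markers. Of the genes at 20 CPM or more on average in AT2, 21 exceeded the highest AT2 marker, and 6 of these were genes of the immediate early and dissociation response. Fosb, a subunit of the AP-1 factor, was at 1562, 1941, 1940, 2005 and 1454 CPM in AT2 and at 2.63, 10.8, 12.5, 3.21 and 7.83 CPM in lung (7.93 ± 0.42, adjusted p = 9.3e-10). Its partner Fos was at 2629, 2987, 3665, 4089 and 2270 CPM against 16.1, 66.8, 27.9, 27.4 and 50.9 CPM (6.39 ± 0.39, adjusted p = 4.4e-09). For both genes the lung libraries varied among themselves by more than 4-fold, and all lay far below the AT2 libraries. Atf3 (5.74), Egr1 (5.41) and Nr4a1 (3.95) followed.

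Of the 20 genes of this list 16 were higher and 3 lower, where 38.3% and 39.7% of all genes were. Their median was 2.62. Those lower were Myc (-1.24), Egr3 (-1.27) and Ier3 (-0.67). The summed level of the list was 12937 to 16345 CPM in Etv5KO AT2, 1277 to 1680 CPM in Etv5KO lung, 15709 to 22046 CPM in control AT2 and 1336 to 1720 CPM in control lung. The AT2 cells had been sorted and the lungs had not, so dissociation and cell type cannot be told apart for these genes.

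Other genes above the AT2 markers were not of that list, but dissociation and cell type cannot be told apart for them either. Iqcn was at 36.6, 71.1, 65.0, 36.8 and 68.5 CPM in AT2 and at 0.279, 0.0425, 0.192, 0.125 and 0.127 CPM in lung, the largest difference at 8.45 ± 0.34 (adjusted p = 7.6e-11). The epidermal growth factor receptor ligand Areg was at 272, 388, 200, 217 and 405 CPM against 9.84, 28.4, 16.4, 11.8 and 6.22 CPM (4.37 ± 0.37, adjusted p = 1.1e-07), and Errfi1, an inhibitor of that receptor, was higher by 3.69. C2cd4b (4.86), Nrn1 (3.86), the lysolipid transporter Mfsd2a (3.75), the Ras-related Rasd1 (3.68), the fatty acid-binding Fabp12 (3.5), the cytokine Csf2 (3.49), which sustains alveolar macrophages, and Cst8 (3.48) were all above every AT2 marker as well. None of these genes passed the test of the difference between the genotypes.

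**Figure D2:**
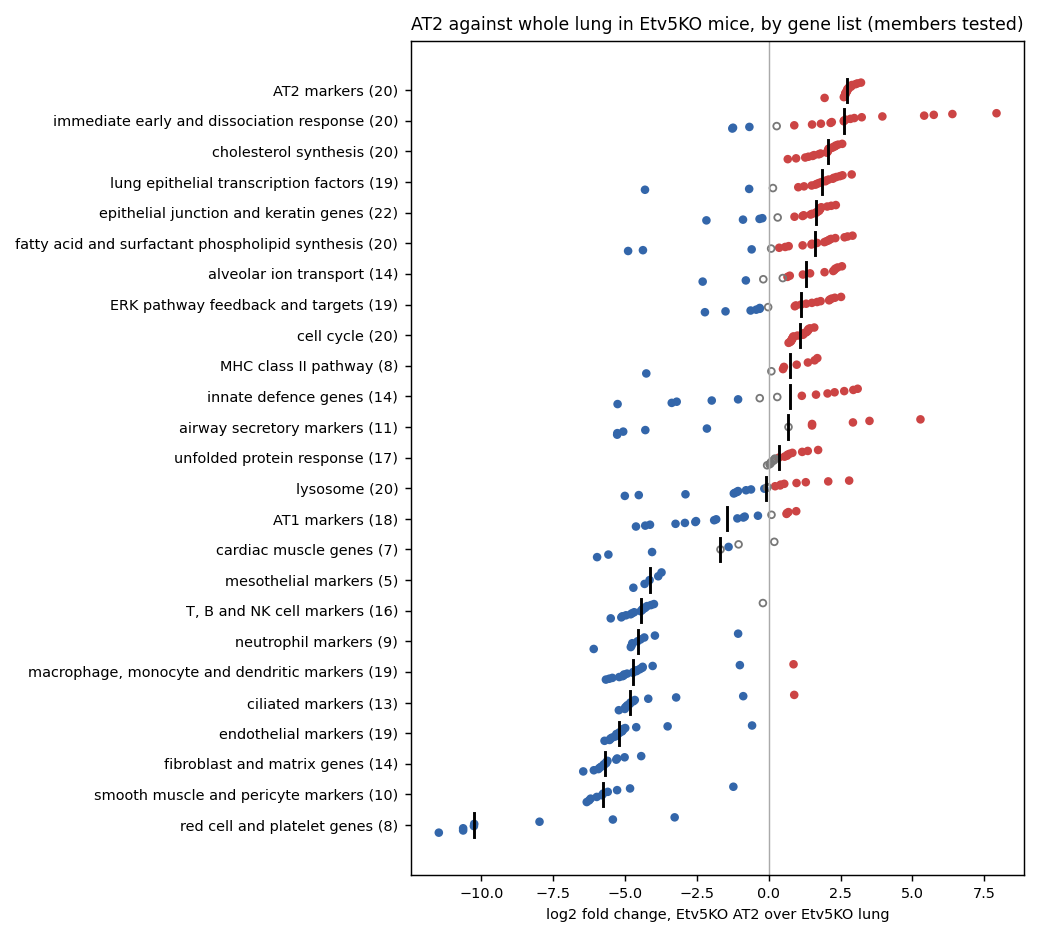
Each point is 1 tested member of a gene list, with its log2 difference between Etv5KO AT2 and Etv5KO lung on the horizontal axis; red and blue points passed an adjusted p of 0.05, open points did not, and black bars are medians. The AT2 markers form a narrow group at a median of 2.73, the immediate early list reaches 7.93, and the lists of endothelial, fibroblast, smooth muscle and red cell genes lie at medians from -5.21 to -10.25.

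Markers of most cell types outside the sort gate were lower in AT2, where 39.7% of all genes were. All 19 endothelial markers were lower (median -5.21), as were all 14 fibroblast and matrix genes (-5.70), all 10 smooth muscle and pericyte markers (-5.78), all 9 neutrophil markers (-4.57), all 5 mesothelial markers (-4.15) and all 8 red cell and platelet genes (-10.25). At the endothelial median an AT2 library held 2.71% of the lung level, and at the fibroblast median 1.93%. Postn, a matrix protein, was at 2.10, 6.07, 5.88, 5.82 and 6.81 CPM in AT2 and at 451, 461, 485, 526 and 477 CPM in lung (-6.45 ± 0.21, adjusted p = 1.4e-11). Angpt1, the Tie2 ligand made by mesenchymal cells, was lower by 6.46 and the endothelin receptor Ednra by 6.51. Of 7 cardiac muscle genes tested 4 were lower, led by the actin Actc1 (-5.97), and 3 did not pass.

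The beta-globin Hbb-b1 was at 0.0516 to 0.296 CPM in AT2 and 187 to 427 CPM in lung, and its counts equal those of Hbb-bs, so the pair cannot be separated. The heme synthesis enzyme Alas2 was at 33.4 to 74.3 CPM in lung and under 0.3 CPM in AT2. Summed over the red cell and platelet list, the lung libraries ranged from 589 to 1287 CPM.

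Of 19 macrophage, monocyte and dendritic markers 18 were lower in AT2 (median -4.71), where 39.7% of all genes were. Of 16 lymphocyte markers 15 were lower (median -4.43). The exceptions were Ly6c2, at 29.6 to 38.5 CPM in AT2 and 7.89 to 27.0 CPM in lung (0.86, adjusted p = 0.0038), and Cd79b, at 37.2 to 51.5 CPM against 30.8 to 68.6 CPM (-0.20, adjusted p = 0.30). Ly6c2 no longer passed with library size alone (0.49, adjusted p = 0.069) and Cd79b then passed as lower (-0.58, adjusted p = 0.0094), as it did without lung library 1 (-0.35, adjusted p = 0.020). The summed macrophage list was 104 to 132 CPM in Etv5KO AT2 and 1178 to 1630 CPM in Etv5KO lung, and no marker of it was at 0 in all 5 AT2 libraries. How much these levels add to any gene measured in the AT2 libraries was not tested.

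Markers of the neighbouring AT1 cells did not move together. Of 18, 13 were lower in AT2 and 4 higher, where 39.7% and 38.3% of all genes were, with a median of -1.46. Spock2 (-4.62), Igfbp2 (-4.30) and Pdpn (-4.13) had the lowest values. Pdpn, which encodes podoplanin on the AT1 surface, was at 9.19, 6.07, 4.02, 4.66 and 7.84 CPM in AT2 and at 97.5, 107, 133, 86.2 and 134 CPM in lung. Hopx, a regulator used to label AT1 cells, was lower by 2.92. The water channel Aqp5 (0.96), Ager (0.64) and Cyp2b10 (0.69) were higher in AT2, and with library size alone Cyp2b10 did not pass (0.32, adjusted p = 0.14). Ager, which encodes a receptor of the AT1 basal surface, was at 3154, 2672, 2773, 3175 and 3197 CPM in AT2 and at 1799, 1908, 2131, 1649 and 2257 CPM in lung, so every AT2 library was above every lung library for this marker.

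For 4 AT1 markers the difference between AT2 and lung was not the same in the 2 genotypes. The chloride channel-like Clic5 was at 305, 381, 297, 300 and 271 CPM in Etv5KO AT2, against 153 to 170 CPM in control AT2, while lung was at 990 to 1389 CPM and 1013 to 1197 CPM. The deficit in AT2 was -1.90 in Etv5KO and -2.78 in controls (difference 0.87, adjusted p = 0.0012). Sec14l3 (-0.84 and -1.67, adjusted p = 0.0038) and Emp2 (-0.38 and -0.84, adjusted p = 0.021) had smaller deficits in Etv5KO too, and Limch1 a larger one (-2.55 and -1.61, adjusted p = 0.013). The galectin Lgals3 was level with lung in Etv5KO (-0.04, adjusted p = 0.71) and at -0.90 in controls (difference 0.85, adjusted p = 0.005). Lgals3 is of the list of 16 genes drawn up on these samples for higher levels in Etv5KO.

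Of 11 airway secretory markers tested, 5 were higher and 5 lower in AT2, where 38.3% and 39.7% of all genes were. Scgb1a1, the hallmark of club cells, was at 562, 240, 422, 504 and 561 CPM in AT2 and at 19139, 17301, 15827, 21154 and 15836 CPM in lung (-5.27 ± 0.25, adjusted p = 3.1e-10). Aldh1a1 was lower by as much (-5.27). The haptoglobin Hp (1.51) and Cbr2 (1.51), which AT2 cells also make, were higher. Bpifa1, a secretory protein of upper airways, was at 22.5, 8.18, 29, 18.2 and 11.2 CPM in AT2 and at 0.159, 1.23, 0.192, 0.5 and 0.254 CPM in lung (5.28 ± 0.49, adjusted p = 3.2e-07), and Bpifb1 (3.51) and Scgb3a1 (2.93) were higher too. These 3 genes were below 30 CPM in every library, and each passed in the same direction in controls.

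The xenobiotic-metabolising Cyp2f2 was lower in AT2 by 2.15 in Etv5KO and by 4.12 in controls (difference 1.95, adjusted p = 0.0003). It was at 332 to 381 CPM in Etv5KO AT2 and 81.4 to 146 CPM in control AT2. Cyp2f2 is of the same list of 16 genes as Lgals3. Of 13 ciliated markers 12 were lower in AT2 (median -4.81), where 39.7% of all genes were. Among those lower was the ciliary master regulator Foxj1 at 2.23 to 2.99 CPM against 39.9 to 59.6 CPM, and Dynlrb2 was higher (0.89, adjusted p = 4.2e-05).

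All 20 cell cycle genes tested were higher in Etv5KO AT2 than in Etv5KO lung, with a median of 1.10, where 38.3% of all genes were higher. In controls 3 of 20 were higher, with a median of 0.64, where 35.6% of all genes were higher. None of the 20 passed the test of the difference between genotypes. Mki67, which marks cells in cycle, was at 96.1, 137, 84.9, 46.6 and 151 CPM in Etv5KO AT2 and at 44.4, 60.2, 45.4, 25.8 and 52.3 CPM in Etv5KO lung. AT2 library 4 lay inside the lung range, and the groups did not overlap for only 3 of the 20 genes, where 29.7% of all genes were higher without overlap (1.19 ± 0.28, adjusted p = 0.0016 for Mki67). Leaving out 1 library at a time left 18 to 20 genes called, all 19 libraries in the fit left 15, and library size alone left 12. The control AT2 libraries spread more, from 15.5 to 117 CPM for Mki67.

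The same comparison in control samples shares no library with the one in Etv5KO samples. It called 1737 genes AT2-enriched (10.1% of 17118 tested), and 1477 of them were AT2-enriched in Etv5KO too. These 1477 are 85.0% of the control list and 85.9% of the Etv5KO list. Of the remaining 260 control genes, 249 were higher in Etv5KO AT2 but under 2-fold or under 5 CPM, 8 did not pass, 1 passed in the opposite direction and 2 were not tested. Most of the 258 tested genes lay near the 2-fold line, since 204 had a control difference under 1.5, and their median was 1.13 in controls and 0.89 in Etv5KO. Of lung-enriched genes, called at 5 CPM or more in lung (17% of genes in Etv5KO and 16.9% in controls), 2680 were shared, 92.6% of the control list and 94.1% of the Etv5KO list.

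A tighter look was taken at the 544 genes at least 4-fold higher in control AT2. Of these, 516 stayed AT2-enriched in Etv5KO. Of the other 28, 24 kept a 2-fold difference but had a mean under 5 CPM in Etv5KO AT2, and 2 were not tested. The last 2 were Zfp618 (2.01 in controls and 0.61 in Etv5KO) and Arg1, the arginase (2.22 and 0.15). Arg1 was at 9.12, 4.65, 5.54, 8.01 and 5.78 CPM in Etv5KO AT2 and 2.43, 8.97, 5.50, 3.42 and 9.73 CPM in Etv5KO lung, so the groups overlapped (adjusted p = 0.70). Its call for a difference between genotypes (-2.09, adjusted p = 0.032) was lost with limma-voom (adjusted p = 0.064) and on leaving out any of most libraries in turn.

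The difference of AT2 and lung was tested between genotypes gene by gene. Of 17698 genes, 282 (1.59%) passed, 140 (0.791%) with a higher and 142 (0.802%) with a lower value in Etv5KO. DESeq2 called 456. Without control AT2 library 1 the lower set shrank to 88 genes and without control AT2 library 3 to 85. Of the 1737 genes AT2-enriched in controls, 36 had a smaller difference in Etv5KO and 1 a larger one. Choosing genes by their control value favours smaller values in Etv5KO, and of the 1719 genes AT2-enriched in Etv5KO 13 had a smaller difference in Etv5KO than in controls and 16 a larger one.

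**Figure D3:**
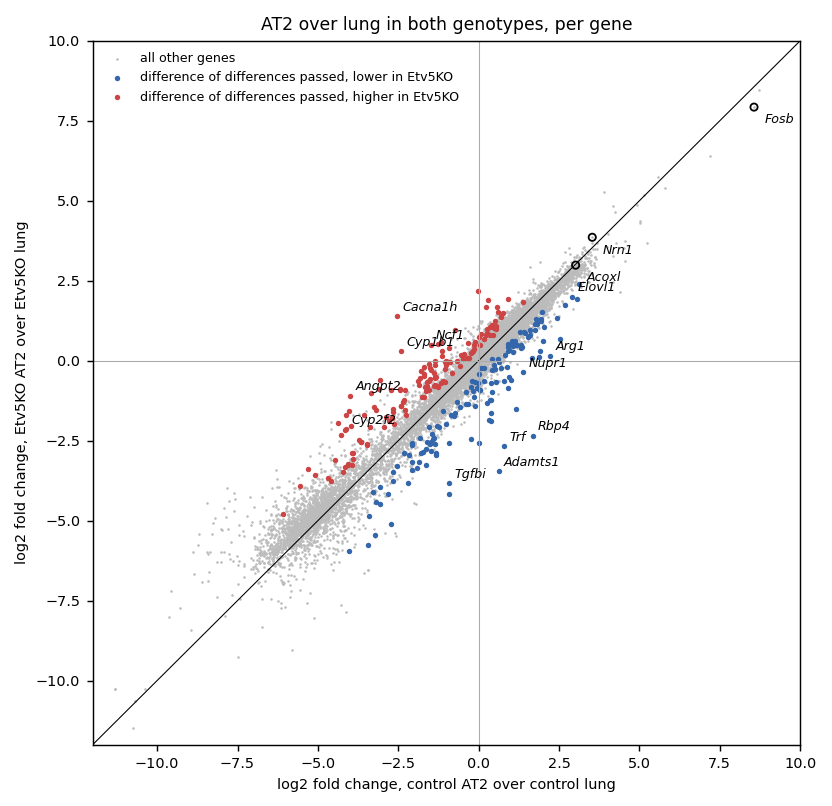
Each point is 1 of 15941 genes that averaged 1 CPM or more in Etv5KO AT2 or Etv5KO lung; the horizontal axis is the log2 difference of AT2 and lung in controls, the vertical axis the same in Etv5KO, and the diagonal marks equal values. Genes past the test of the difference between genotypes are blue (lower in Etv5KO) or red (higher); Rbp4, Trf and Adamts1 lie to the right of 0 and below 0, Cacna1h lies to the left of 0 and above 0, and Acoxl, Nrn1 and Fosb (open circles) lie near the diagonal.

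A group of transcripts stayed higher in AT2 than in lung, with a level that was lower in both Etv5KO tissues. A lung library also contains AT2 cells, so a transcript made mainly by AT2 cells can keep its ratio at any level. A kept ratio therefore does not measure whether a transcript depends on Etv5. Apart from C2cd4b and Lcn2 they come from a list of 18 genes that was drawn up on these samples for lower levels in Etv5KO, so that direction is a description and not independent evidence. Over that list, 11 genes were higher and 6 lower in Etv5KO AT2 than in Etv5KO lung, where 38.3% and 39.7% of all genes were. Their median was 1.46. In controls 16 were higher and 1 lower, with a median of 2.48, where 35.6% of all genes were higher. Acoxl, which encodes an acyl-CoA oxidase-like protein, was at 185, 116, 91.1, 170 and 110 CPM in Etv5KO AT2 and at 10.6, 15.2, 14.3, 23.4 and 22.6 CPM in Etv5KO lung. The control libraries were at 691 to 952 CPM in AT2 and 88.6 to 128 CPM in lung. All Etv5KO libraries were below all control libraries of the same tissue, and the difference of AT2 and lung was 2.98 ± 0.25 in Etv5KO (adjusted p = 1.0e-07) and 3.01 in controls.

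Nrn1, a membrane-anchored neuritin, was at 62.8, 32.3, 30.9, 49.8 and 30.3 CPM in Etv5KO AT2 and 2.23, 4, 2.27, 3.21 and 2.67 CPM in Etv5KO lung. Control AT2 held 117 to 241 CPM and control lung 11.3 to 22.2 CPM, and the differences were 3.86 and 3.53. Bex2, a small X-linked protein, had differences of 3.32 and 3.23, and C2cd4b of 4.86 and 4.93. The fatty acid-binding Fabp5 (2.64 and 3.26), the calcium channel Trpv6 (2.22 and 2.90) and Lcn2 (2.63 and 3.19) had smaller values in Etv5KO that did not pass the test between genotypes (adjusted p = 0.48, 0.28 and 0.66). The repressor Hes2 was nearly gone from both tissues, at 0.528 to 1.71 CPM in Etv5KO AT2 and 0.192 to 0.425 CPM in Etv5KO lung, against 17.2 to 67.9 CPM and 2.59 to 10.4 CPM in controls. It still passed as higher in AT2 (1.62, adjusted p = 0.0012), where controls differed by 2.77, but with a mean of 0.912 CPM in Etv5KO AT2 it was no longer AT2-enriched as defined here. Its difference between genotypes did not pass (adjusted p = 0.71).

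Elovl1, an elongase of very long-chain fatty acids, fell short of its control value while staying AT2-enriched. It was at 673, 591, 610, 695 and 635 CPM in Etv5KO AT2 and at 159, 165, 155, 178 and 154 CPM in Etv5KO lung, a narrow spread in both groups (2.00 ± 0.07, adjusted p = 3.3e-11). Control AT2 held 3479, 2468, 3344 and 1939 CPM and control lung 294 to 480 CPM, a difference of 2.90. The value in Etv5KO was less by 0.92 (adjusted p = 0.019). That call was lost without control AT2 library 1 (adjusted p = 0.067) or library 3 (adjusted p = 0.070). Elovl1 overlaps Cdc20 in the annotation, and the strand setting of the counting is not given in the sources used here.

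**Figure D4:**
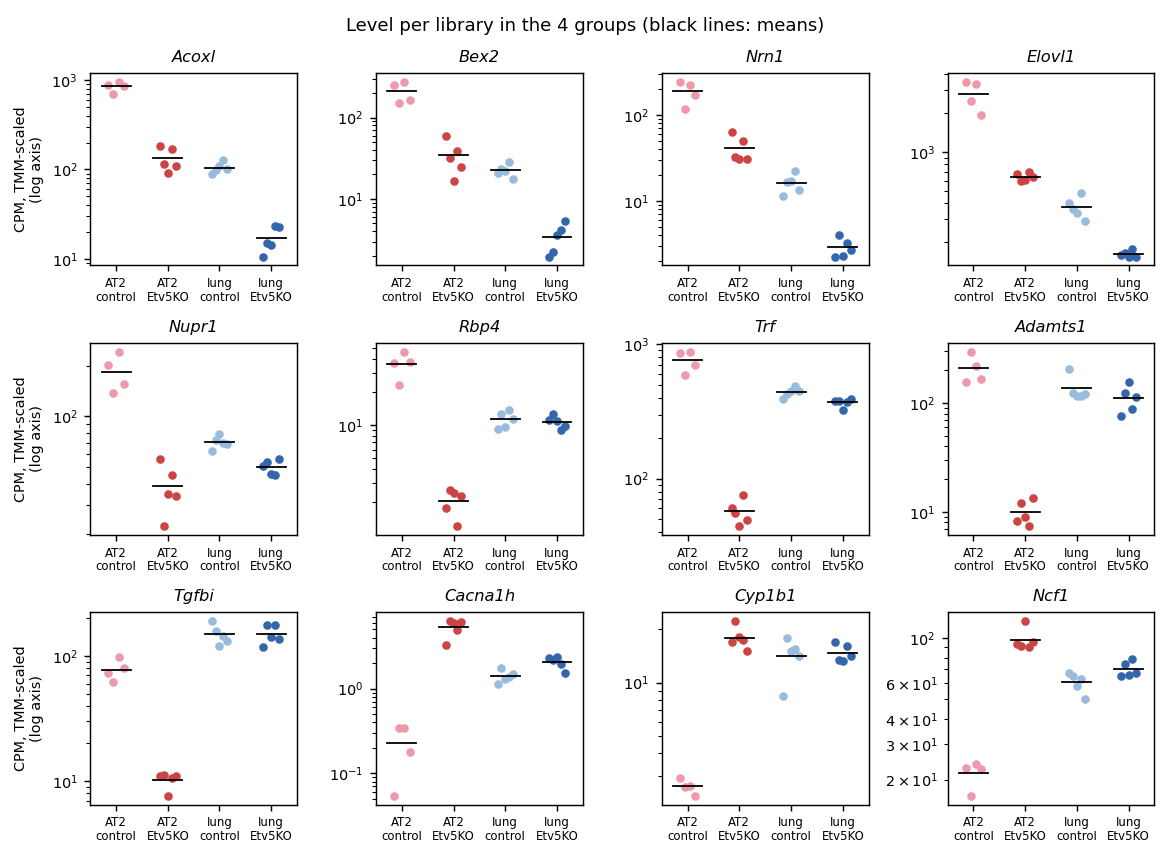
Each point is 1 library, black lines are group means, and the vertical axes are TMM-scaled CPM on log axes with a range of their own in each panel. Acoxl, Bex2, Nrn1 and Elovl1 are lower in both Etv5KO tissues than in the control tissues; Nupr1, Rbp4, Trf, Adamts1 and Tgfbi are lower in Etv5KO AT2 than in control AT2, with Etv5KO and control lung groups that lie close together or overlap; Cacna1h, Cyp1b1 and Ncf1 are higher in Etv5KO AT2 than in control AT2.

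For another set, the value of AT2 relative to lung was lower in Etv5KO than in controls. Of the genes described, Rbp4, Nupr1, Marchf3 and Atp13a4 were at least 2-fold higher in AT2 in controls, and the others were not. Rbp4, Trf, Adamts1, Ppp1r3c, Tgfbi and Nupr1 are of the same list of 18, so their direction was known beforehand. Rbp4, the plasma carrier of retinol, was at 1.77, 2.59, 2.41, 1.21 and 2.27 CPM in Etv5KO AT2 and at 11.0, 12.6, 10.8, 9.09 and 9.86 CPM in Etv5KO lung, so every AT2 library was below every lung library (-2.35 ± 0.17, adjusted p = 3.2e-08). In controls AT2 held 36.6, 23.4, 46.6 and 37.5 CPM and lung 9.26, 12.7, 9.56, 13.7 and 11.3 CPM, with every AT2 library above every lung library (1.68, adjusted p = 4.5e-06). It was the 1 AT2-enriched gene of controls that passed the opposite way in Etv5KO, and the difference between genotypes was -4.04 (adjusted p = 2.4e-08).

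Trf, which encodes the iron carrier transferrin, was at 60.9, 55.6, 44.2, 75 and 49.5 CPM in Etv5KO AT2 and at 378, 379, 327, 373 and 390 CPM in Etv5KO lung (-2.68 ± 0.13, adjusted p = 3.6e-10). Control AT2 held 856, 596, 884 and 696 CPM and control lung 391 to 490 CPM, a difference of 0.78. Adamts1, a secreted metalloprotease, was at 8.21, 12, 9.01, 7.37 and 13.4 CPM against 75.3, 125, 156, 88.4 and 113 CPM (-3.46 ± 0.21, adjusted p = 5.1e-09). Control AT2 held 156, 298, 221 and 167 CPM and control lung 115 to 207 CPM, and the difference there was 0.62. The control groups of Adamts1 overlapped, those of Trf did not, and both genes lay far under the lung level in Etv5KO AT2, with genotype differences of -3.47 (adjusted p = 5.8e-10) and -4.10 (adjusted p = 3.6e-07).

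The glycogen-targeting subunit Ppp1r3c went from 0.40 in controls to -1.88 in Etv5KO (difference adjusted p = 1.8e-05) and the acetyl-CoA carboxylase Acacb from 0.25 to -1.33 (adjusted p = 0.0017). The matrix protein Tgfbi (-0.93 to -3.84, adjusted p = 1.0e-07) and the guidance factor Slit3 (-3.43 to -5.75, adjusted p = 0.0017) were already lower in control AT2. The stress-induced Nupr1 was at 56.1, 22.3, 34.8, 45.1 and 33.9 CPM in Etv5KO AT2 and at 51.1, 53.4, 45.5, 45.2 and 55.6 CPM in Etv5KO lung, and the groups overlapped (-0.37, adjusted p = 0.086), where controls differed by 1.38. It passed as lower without AT2 library 1 (-0.53, adjusted p = 0.01), with limma-voom (-0.44, adjusted p = 0.042) and with library size alone (-0.74, adjusted p = 0.0016). The ubiquitin ligase Marchf3 (0.30, adjusted p = 0.06; 1.90 in controls) and Atp13a4 (0.12, adjusted p = 0.65; 1.87 in controls) did not pass against lung either. Marchf3 passed as higher without AT2 library 3 (0.37, adjusted p = 0.031) or lung library 5 (0.36, adjusted p = 0.040) and with all 19 libraries in the fit (0.29, adjusted p = 0.044).

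The 2 sets were formed by whether the ratio of AT2 to lung was kept, which fixes how their genotype differences divide between the tissues. Elovl1 is listed with the first set because it stayed AT2-enriched, although its ratio was lower in Etv5KO (log2 -0.92). The values follow for their size alone. Between Etv5KO and control AT2 the log2 difference was -2.65 for Acoxl, -2.18 for Nrn1, -2.62 for Bex2 and -2.12 for Elovl1, and between Etv5KO and control lung it was -2.62, -2.5, -2.71 and -1.21 for the same genes. For Rbp4 it was -4.11 in AT2 and -0.09 in lung, for Trf -3.73 and -0.26, for Adamts1 -4.39 and -0.3, and for Ppp1r3c -2.33 and -0.05. These comparisons also share their libraries with those above, so no test is given.

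The opposite pattern, a gain in Etv5KO AT2 relative to lung, was seen for 140 genes, of which those chosen by size of change or level are described. Angpt2, Cyp1b1, Ncf1, Emp1 and Entpd3 are of a list of 16 drawn up on these samples for higher levels in Etv5KO. Of that list, 8 were higher and 6 lower in Etv5KO AT2 than in Etv5KO lung, where 38.3% and 39.7% of all genes were. In controls 4 were higher and 10 lower, where 35.6% of all genes were higher. Cacna1h, a T-type calcium channel, was at 3.28, 6.28, 6, 4.95 and 6.09 CPM in Etv5KO AT2 and at 2.31, 2.17, 2.39, 1.96 and 1.52 CPM in Etv5KO lung (1.38 ± 0.19, adjusted p = 1.6e-05). Control AT2 held 0.0543 to 0.346 CPM and control lung 1.15 to 1.76 CPM, so the order of the tissues was reversed (-2.53, difference 3.89, adjusted p = 6.2e-06). It was the 1 AT2-enriched gene of Etv5KO that passed the opposite way in controls. The ectonucleotidase Entpd3 was higher in AT2 by 1.89 in Etv5KO, where the controls differed by 0.28 (adjusted p = 0.00063).

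Ncf1, which encodes a cytosolic subunit of NADPH oxidase, was at 93.6, 91.7, 121, 90.0 and 95.2 CPM in Etv5KO AT2 and at 65.0, 74.5, 65.9, 79.0 and 67.4 CPM in Etv5KO lung (0.50 ± 0.09, adjusted p = 2.0e-04), against -1.5 in controls. With library size alone it no longer passed in Etv5KO (0.13, adjusted p = 0.21). The dioxin-inducible Cyp1b1 was level within overlapping groups, at 15 to 22.2 CPM in AT2 and 13.2 to 17.0 CPM in lung (0.30, adjusted p = 0.026), and that call was lost without any of 4 single libraries and reversed in sign with library size alone (-0.07). Its difference from controls was 2.71 (adjusted p = 1.0e-06).

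The Tie2 ligand Angpt2 (-3.99 in controls, -1.10 in Etv5KO, adjusted p = 1.3e-05) and the membrane protein Emp1 (-3.26 and -1.45, adjusted p = 0.011) remained lower in AT2, by less. Emp1 was uneven among the AT2 libraries, at 82.8, 182, 153, 60.0 and 86.8 CPM. Fam167a was 0.58 in Etv5KO (adjusted p = 0.03) and -1.16 in controls (difference 1.72, adjusted p = 0.024). Its call in Etv5KO was lost without any of 4 single libraries, and its difference between genotypes without control AT2 library 1, 3 or 4. The call in Etv5KO was also lost with library size alone (0.22, adjusted p = 0.40). Pf4, of the platelet list, differed the other way (-3.27 in Etv5KO, -1.65 in controls, adjusted p = 0.0071).

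Some summed marker lists of other cell types differed between the AT2 groups of the 2 genotypes. The summed list was higher in every Etv5KO AT2 library than in every control AT2 library for AT1 markers (8116 to 8401 against 5619 to 6490 CPM), airway secretory markers (7975 to 9871 against 4771 to 7038 CPM), ciliated markers (171 to 223 against 110 to 131 CPM) and mesothelial markers (16.9 to 26.0 against 9.14 to 16.6 CPM). It was lower in every Etv5KO AT2 library for cardiac muscle genes (8.71 to 11.5 against 11.9 to 13.4 CPM). A sum follows its most abundant members. The AT1 list includes genes higher in Etv5KO AT2 than in lung, such as Ager and Aqp5. So do the airway list (Hp and Cbr2) and the ciliated list (Dynlrb2). For those lists a higher sum does not by itself measure cells of that type. All 5 mesothelial genes were lower in Etv5KO AT2 than in lung. The source of the higher sums was not tested. The AT2 groups overlapped for endothelial markers (328 to 414 against 344 to 415 CPM), macrophage markers (104 to 132 against 78.1 to 113 CPM) and fibroblast genes (80.3 to 168 against 77.2 to 120 CPM). Gene by gene, the value of AT2 relative to lung was above that of controls for 18 of 19 endothelial, 14 of 14 fibroblast, 9 of 10 smooth muscle, 12 of 13 ciliated and 5 of 5 mesothelial genes. The medians of these lists ran from 0.26 to 0.53, where that of all genes was -0.01. Of these genes only Lmod1, of the smooth muscle list, passed the test between genotypes. The part of such cells in the gains described here was not tested.

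The stretches just before the transcription starts are shown for genes of both sets, from RefSeq on build GRCm38.p6 and read 5′ to 3′ on the gene's strand. Each is the 250 bases before the annotated start, in lower case. Capitals mark CCGGAA, a core of ETS-factor sites, CTCAAG, a core of NKX2-1 sites, and TGANTCA, an AP-1 site, each searched on both strands. The first 2 belong to surfactant genes that kept their AT2 enrichment, Sftpb (chr6:72304360-72304609, plus strand) and Sftpa1 (chr14:41131538-41131787, plus strand). The third is Acoxl (chr2:127854378-127854627, plus strand), whose level was lower and whose ratio was kept. Sftpa1, like Acoxl, is of the list of 18 genes drawn up on these samples for lower levels in Etv5KO. The last 2 are Rbp4 (the second of its 2 annotated starts, chr19:38124812-38125061, minus strand) and Adamts1 (chr16:85803114-85803363, minus strand), which were lower in AT2 than in lung in Etv5KO and not in controls.
Sftpb: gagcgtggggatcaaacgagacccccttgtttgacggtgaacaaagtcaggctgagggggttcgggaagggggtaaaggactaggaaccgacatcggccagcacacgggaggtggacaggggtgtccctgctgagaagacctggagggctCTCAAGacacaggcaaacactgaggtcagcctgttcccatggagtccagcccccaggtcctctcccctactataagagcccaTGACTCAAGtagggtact
Sftpa1: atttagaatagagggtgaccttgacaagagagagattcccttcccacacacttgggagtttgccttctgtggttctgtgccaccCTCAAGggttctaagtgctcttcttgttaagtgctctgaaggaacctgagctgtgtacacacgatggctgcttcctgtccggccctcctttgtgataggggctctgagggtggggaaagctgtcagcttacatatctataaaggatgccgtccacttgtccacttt
Acoxl: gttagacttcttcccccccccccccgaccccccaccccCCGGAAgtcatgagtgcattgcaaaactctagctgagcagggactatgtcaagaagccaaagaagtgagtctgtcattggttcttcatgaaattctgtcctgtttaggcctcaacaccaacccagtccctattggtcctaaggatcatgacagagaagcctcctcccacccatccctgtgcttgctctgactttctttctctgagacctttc
Rbp4: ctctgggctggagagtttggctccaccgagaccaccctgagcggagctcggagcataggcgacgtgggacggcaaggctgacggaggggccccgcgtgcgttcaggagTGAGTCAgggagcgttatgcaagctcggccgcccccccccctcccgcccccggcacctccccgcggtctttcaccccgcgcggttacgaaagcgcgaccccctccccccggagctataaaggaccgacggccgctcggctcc
Adamts1: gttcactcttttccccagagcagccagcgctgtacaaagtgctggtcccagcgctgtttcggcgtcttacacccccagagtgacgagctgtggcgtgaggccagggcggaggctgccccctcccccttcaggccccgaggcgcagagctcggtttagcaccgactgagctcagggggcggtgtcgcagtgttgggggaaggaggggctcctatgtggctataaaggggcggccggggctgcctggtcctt

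Sftpb held CTCAAG at 100 and 15 bases before the start, the nearer of them overlapping a TGANTCA match that begins 18 bases before the start, and Sftpa1 held CTCAAG at 166 bases before the start. Acoxl held CCGGAA at 212 bases before the start. The Rbp4 window shown held a TGANTCA match, its other window none of the 3 motifs, and the Adamts1 window none. Of the other windows searched, that of Tgfbi and 1 of those of Elovl1 held CTCAAG, and those of Slc34a2 and Bex2 held none of the 3.

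The same letters were counted in all promoters of this length. CCGGAA was present in 12% of 32851 promoter windows and in 19.2% of the 15731 windows of genes tested, CTCAAG in 13.3% and 12.4%, and TGANTCA in 6.7% and 5.0%. Of 1502 windows matched to 1140 of the 1477 genes AT2-enriched in both genotypes, 13.6% held CCGGAA, 11.9% CTCAAG and 4.1% TGANTCA. Of 149 windows matched to 105 of the 142 genes with a lower difference in Etv5KO, 7.4% held CCGGAA, 7.4% CTCAAG and 6.7% TGANTCA. Of 143 windows matched to 109 of the 140 genes with a higher difference, 11.9% held CCGGAA, 8.4% CTCAAG and 9.8% TGANTCA. These shares describe letters in a short window and not binding.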

How the data were processed

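RNA was sequenced from sorted AT2 cells and whole lung, as polyA RNA per the labels' protocols. Per the file headers, the authors deposited for each sample raw read counts per Entrez gene and RPKM values, and the submitters' processing notes name GSNAP and build mm9. The counting program, annotation and strand setting were not given in the sources used here. Gene symbols came from RefSeq (GRCm38.p6) and matched 31049 of 36528 identifiers, which hold 98.8% of counts. Promoter coordinates are on that build and none from mm9 are printed.

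Counts of the 10 Etv5KO libraries were tested with edgeR 4.0.16 (quasi-likelihood test, TMM scaling, Benjamini-Hochberg adjustment over all genes tested) in R 4.3.3, after keeping genes with a count of 10 or more scaled to library size in enough libraries. The control comparison used the 9 control libraries and the difference between genotypes used all 19. Printed CPM use TMM factors over all 19 libraries. limma 3.58.1 and DESeq2 1.42.0 were alternatives. The scripts were tested on simulated counts. Members and gene lists were chosen with earlier results of these data known. Named genes were Etv5 and the gate genes, the 15 largest differences each way at 20 CPM or more, the 4 most abundant of each list with up to 3 that went against it, genes past the test between genotypes, and the 15 highest RPKM. Other list members named were chosen after their values were seen. In the RefSeq annotation S100g overlaps Ctps2, Rasd1 overlaps Med9, Acoxl overlaps Bcl2l11, Ccnd1 overlaps LTO1, Npc1 overlaps Rmc1, Angpt2 overlaps Mcph1 and Alas2 overlaps Apex2, so reads of such pairs may not be separated.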

Additional observations from a re-analysis of the deposited data

Results flagged for a closer look

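For 34 of the genes named, the difference of AT2 and lung was not the same in Etv5KO and control samples (adjusted p under 0.05). Genes past this test were among those chosen for naming, so the count of 34 follows from that choice. Of all 17698 genes tested, 282 (1.59%) passed. The values of the 34 are Etv5KO minus control on the log2 scale. Lower in Etv5KO were Adamts1 (-4.10), Rbp4 (-4.04), Trf (-3.47), Tgfbi (-2.92), the phosphodiesterase Gdpd2 (-2.59), Slit3 (-2.34), Ppp1r3c (-2.29), Arg1 (-2.09), Nupr1 (-1.77), Atp13a4 (-1.77), Pf4 (-1.64), Marchf3 (-1.61), Acacb (-1.6), Limch1 (-0.96), Elovl1 (-0.92), Lbp (-0.67) and Spry1 (-0.51). Higher were Cacna1h (3.89), Angpt2 (2.88), Cyp1b1 (2.71), Etv4 (2.20), Ncf1 (1.98), Cyp2f2 (1.95), Emp1 (1.79), Fam167a (1.72), Entpd3 (1.59), Ano1 (1.48), the smooth muscle gene Lmod1 (1.06), Clic5 (0.87), Lgals3 (0.85), Sec14l3 (0.81), Ccnd1 (0.74), Scnn1b (0.59) and Emp2 (0.45). The call for Scnn1b (adjusted p = 0.036) was lost on leaving out any of most libraries in turn. Adamts1, Rbp4, Trf, Tgfbi, Gdpd2, Ppp1r3c, Nupr1, Elovl1 and Spry1 are of the list drawn up on these samples for lower levels in Etv5KO. Angpt2, Cyp1b1, Etv4, Ncf1, Cyp2f2, Emp1, Entpd3, Ano1, Lgals3 and Ccnd1 are of the list drawn up for higher levels.

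In 23 of 314 groups examined, 7.3%, 1 library stood apart from the others of its group, where chance alone gives about 1 in 20. Etv5KO AT2 library 3 stood apart for Ctsh (1487 CPM, the others at most 1092), Ncf1 (121, at most 95.2) and Cyp2b10 (391, at most 234) on the high side, and for Tgfbi (7.65, at least 10.6), Entpd3 (25.4, at least 31.0) and Psap (138, at least 164) on the low side. Etv5KO AT2 library 1 was low for Postn (2.10 CPM) and high for Hes2 (1.71 CPM).

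Among Etv5KO lung libraries, library 3 was low for Etv5 (94.4 CPM) and Trf (327 CPM), library 4 high for Sftpc (10385 CPM) and Myc (16.5 CPM), library 1 high for Aldh1a1 (851 CPM) and Lmod1 (18.1 CPM), library 2 high for Tppp3 (403 CPM) and C2cd4b (2.34 CPM), and library 5 high for Scd2 (1056 CPM). Among controls, lung library 1 was high for Adamts1 (207 CPM) and low for Cyp2f2 (1126 CPM), lung library 2 low for Marchf3 (4.11 CPM), lung library 3 low for Atp13a4 (4.90 CPM), and AT2 library 2 high for Atp13a4 (26.8 CPM) and Fam167a (16.6 CPM).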

How the results depend on the processing

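With library size alone, 3579 genes were higher in Etv5KO AT2 and 3318 in control AT2, 1078 were AT2-enriched in Etv5KO, 1057 in controls and 913 in both. Tested against a 2-fold change, 5717 genes passed in Etv5KO and 5917 in controls. DESeq2 called 456 differences between genotypes, 220 lower and 236 higher. At a 1.5-fold threshold 3143 genes were AT2-enriched in Etv5KO, 3178 in controls and 2753 in both, and at 4-fold 486, 544 and 435. The share of control AT2-enriched genes that stayed enriched was 80.0% to 86.6% over all these settings.

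Leaving out 1 library at a time gave 12841 to 13356 genes passing in Etv5KO (6252 to 6497 higher, 6568 to 6859 lower), 12038 to 12986 in controls (5745 to 6216 higher, 6293 to 6770 lower), 198 to 319 differences between genotypes (85 to 161 lower, 106 to 184 higher), 1711 to 1777 AT2-enriched genes in Etv5KO, 1694 to 1873 in controls and 1450 to 1513 in both (79.7% to 86.6%), 15 to 16 lists with a median above 0 and 2.62 to 2.73 for Etv5.

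With library size alone the Etv5KO values of Arg1 (-0.221), Marchf3 (-0.0607), Atp13a4 (-0.243), Cyp1b1 (-0.0674) and Foxp1 (-0.219) changed sign, as did the genotype difference of Acoxl (0.0114). Leaving out 1 library at a time gave -0.0524 to 0.393 for Arg1, -0.0099 to 0.295 for Atp13a4, and genotype differences of -0.181 to 0.0911 for Acoxl and -0.187 to 0.279 for Bex2. Of these values, that of Cyp1b1 alone had passed. The cause was not tested beyond the shift that the scaling itself makes. No paired analysis was possible because the labels give no replicate numbers and tie no AT2 sample to a lung sample.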
